A study of Rattus norvegicus with 11 samples.

Results

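TAL/MD cells are the kidney cells that the authors named TAL/MD in their table of single cells, read here in the usual renal sense as thick ascending limb (TAL) and macula densa (MD). All cells with exactly that name were taken, 4942 of 114615 cells (4.31%), with 175 to 733 in each of 11 rats. The table holds a cell type, the number of UMIs (unique molecular identifiers, 1 for each captured RNA molecule) and of genes, the mitochondrial share of the UMIs, cell cycle scores and map coordinates for every cell, and it holds no levels of single genes. The name could therefore not be checked against Slc12a1, the salt transporter of the thick limb, or Nos1, the nitric oxide synthase of the macula densa. For the same reason macula densa cells and thick limb cells inside the group could not be told apart. A further 2009 cells carry the plain name TAL, 2085 are DTL, the descending thin limb that precedes them, and 2669 are DCT, the distal convoluted tubule that follows.

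The thick ascending limb reabsorbs sodium, potassium and chloride through the cotransporter NKCC2, encoded by Slc12a1, without letting water follow, and so dilutes the tubular fluid and builds the salt gradient of the medulla. Its transport is driven by the sodium pump, and its cells are dense in mitochondria. The macula densa is a small plaque of cells at the end of the thick limb that senses salt delivery and signals to the glomerulus and to the renin-producing cells. Renin starts the pathway to angiotensin II, and enalapril blocks the converting enzyme in that pathway.

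Kidneys came from male ZSF1 rats, a hybrid strain used as a model of diabetic kidney disease, that were 12 weeks old when obtained, and the labels give all of them the genotype ZSF1-LeprfaLeprcp/Crl and the same high energy chow. The groups were 4 Lean rats with no treatment, 4 Obese rats whose treatment is labelled none, and 3 Obese+enalapril rats that took enalapril in their drinking water. The protocol describes a vehicle arm of obese rats. The label does not say which of the leptin receptor alleles a lean rat carried. Kidneys were perfused and digested, debris and dead cells were removed, and 10000 cells were loaded per library, so the shares are shares of captured cells and not of tissue.

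Libraries held 4232 to 18427 cells. Those of lean rat 1, obese rats 1, 3 and 4 and treated rats 1 and 2 held more cells than the stated load. The reason for this, and its bearing on the shares, was not tested. Lean rat 2 and Obese+enalapril rat 1 stood apart before any comparison, with a median of 380 and 1563 UMIs per TAL/MD cell and median mitochondrial shares of 11.4% and 8.18%, the lowest of the 11 rats in both measures. Each result that rests on them is given without them where its direction or call changes. Of the TAL/MD cells, 145 (2.93%) had a cell barcode that also occurs in another library, and 2 of these shared it with another TAL/MD cell. Sample codes share their starts in pairs within a group, except that of treated rat 3, so whatever the code stands for cannot be told apart from the group.

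TAL/MD cells made up a variable share of the kidney cells, and no difference between the groups passed the test. In lean rats 1 to 4 the share of all cells was 4.72%, 9.71%, 6.34% and 2.71%, a mean of 5.87% ± 2.96 (SD, n = 4). In obese rats 1 to 4 it was 2.73%, 3.80%, 5.37% and 1.47%, a mean of 3.34% ± 1.66 (SD, n = 4). In the 3 enalapril-treated rats it was 3.83%, 6.40% and 5.998%, a mean of 5.41% ± 1.38 (SD, n = 3). All 3 groups overlapped. The exact 95% Clopper-Pearson intervals of single rats, which cover counting error only, ran from 1.30% to 1.65% in obese rat 4 and from 8.84% to 10.6% in lean rat 2.

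The log2 difference between obese and lean rats was -0.81 ± 0.46 (SE, adjusted p = 0.133, edgeR's quasi-likelihood test with Benjamini-Hochberg adjustment over 20 types), in a comparison where 60.0% of types were called. The share differed by 0.70 ± 0.49 between enalapril-treated and untreated obese rats (adjusted p = 0.426 in edgeR, with 0% of types called). It differed by -0.12 ± 0.49 between enalapril-treated and lean rats (adjusted p = 0.859 in edgeR, with 15.0% called), and that sign turned without the 2 shallow rats (0.43). Among non-immune cells only, TAL/MD made up 6.77% ± 3.21 in lean, 5.13% ± 2.61 in obese and 6.62% ± 1.85 in treated rats (SD, n = 4, 4 and 3). Obese and lean rats then differed by -0.40 ± 0.47 (adjusted p = 0.610 in edgeR, with 20% of types called). Immune cells are part of the first denominator and not of the second, and the differences in the 2 shares were not tested against each other.

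**Figure D1:**
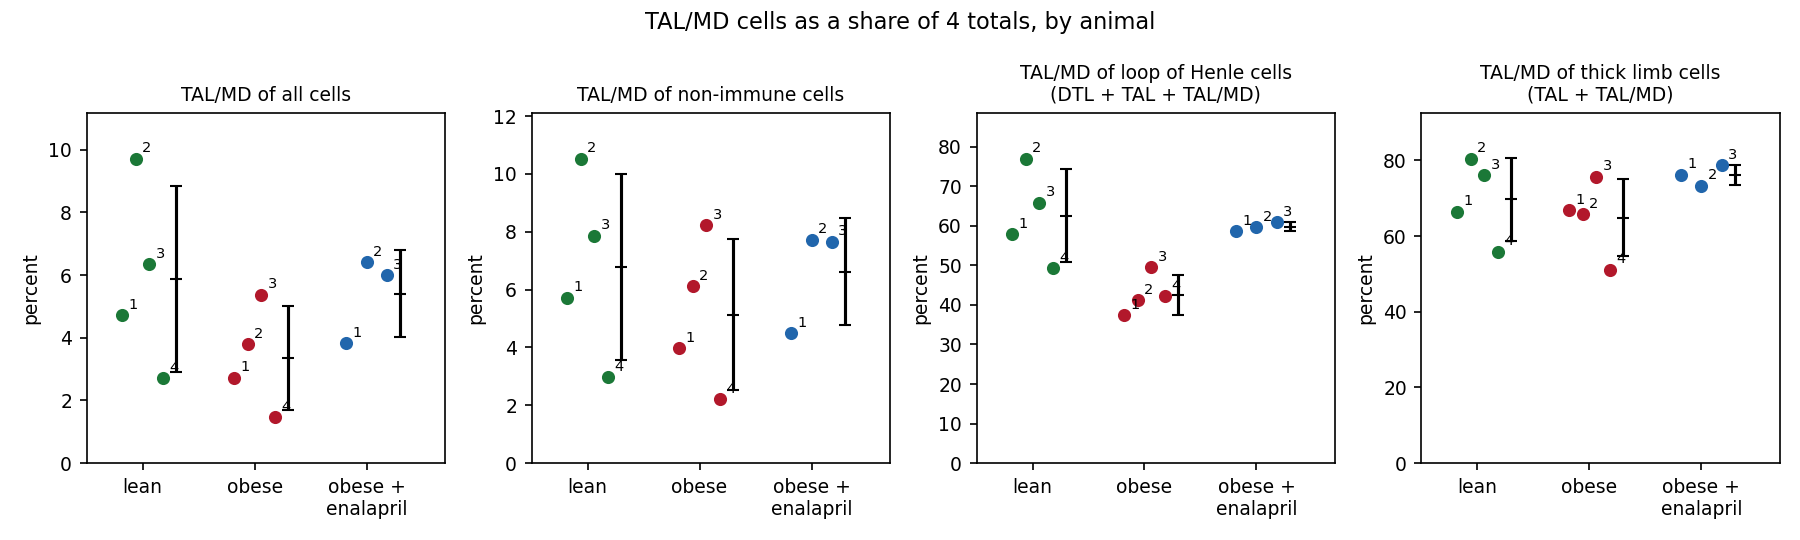
TAL/MD cells of each rat (numbered points) as a percent of all cells, of non-immune cells, of loop of Henle cells and of thick limb cells, for lean, obese and enalapril-treated obese rats, with bars at the mean ± SD (n = 4, 4 and 3). Only in the loop panel do the 4 obese rats (37.4% to 49.6%) lie below the 3 treated rats (58.7% to 60.9%) with no overlap.

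Within the loop of Henle (DTL, TAL and TAL/MD together) the groups separated more. TAL/MD cells were 57.9%, 77.0%, 65.9% and 49.3% of the loop in lean rats 1 to 4, and 37.4%, 41.3%, 49.6% and 42.2% in obese rats 1 to 4. They were 58.7%, 59.7% and 60.9% in the treated rats. Lean and obese rats overlapped only through lean rat 4 and obese rat 3. The loop share was called lower in obese than in lean rats (log2 difference -0.55 ± 0.15, adjusted p = 0.0169 in edgeR over 17 types, of which 23.5% were called). This call rested on single rats: in edgeR it was -0.53 with lean rat 3 left out (adjusted p = 0.0541) and -0.50 with obese rat 1 left out (adjusted p = 0.0578). DTL cells are part of this denominator and were themselves called higher in obese than in lean rats, by 1.64 ± 0.35 of the loop (adjusted p = 0.00694 in edgeR) and by 1.62 ± 0.49 of all cells (adjusted p = 0.0118 in edgeR). With DTL in the denominator, the loop share alone does not show fewer TAL/MD cells. Of all cells, the TAL/MD difference was also negative (-0.81 ± 0.46) but was not called. How much of the lower loop share comes from either type was not tested.

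The treated rats had a loop share of 59.8% ± 1.14, against 42.6% ± 5.07 in untreated obese rats (SD, n = 3 and 4), and every treated rat lay above every untreated one. Of 17 types, 23.5% showed no overlap between these groups in the share of their own compartment. The log2 difference of 0.49 ± 0.16 missed the threshold in edgeR (adjusted p = 0.0680, with 5.88% of types called) and passed it in DESeq2 (0.48, adjusted p = 0.0262). Treated and lean rats differed by -0.07 ± 0.16 (adjusted p = 0.893 in edgeR, with 29.4% of types called), and without lean rat 2 by 0.05.

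Inside the thick limb, no difference in the balance of TAL/MD and TAL cells passed the test. TAL/MD cells were 66.4%, 80.4%, 76.1% and 55.9% of the thick limb cells (TAL and TAL/MD) in lean rats, 66.8%, 65.7%, 75.7% and 51.1% in obese rats, and 76.2%, 73.3% and 78.7% in treated rats. The lean and obese ranges lay almost on top of each other. The mean log2 odds differed by -0.35 between obese and lean rats (exact two-sided permutation test, p = 0.457, adjusted p = 0.457 over 3 contrasts), by -0.0643 without obese rat 4, by -0.0870 without lean rat 2, by -0.59 without obese rat 3 and by -0.65 without lean rat 4. Treated rats differed from obese rats by 0.76 (exact permutation p = 0.114, adjusted p = 0.343) and from lean rats by 0.41 (exact permutation p = 0.457, adjusted p = 0.457). The first of these was 0.48 without obese rat 4, and the other was 0.11 without lean rat 4 and 0.67 without lean rat 2.

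For each DTL cell, lean rats 1 to 4 gave 4.53, 17.9, 4.88 and 4.17 TAL/MD cells. Obese rats 1 to 4 gave 0.851, 1.11, 1.44 and 2.41, and treated rats 1 to 3 gave 2.54, 3.21 and 2.71. The 3 groups did not overlap, with lean rats highest, treated rats between and obese rats lowest. No such ratio was formed for other types, so how common this separation is among them is unknown. Both counts enter this ratio, and neither is scaled to the size of the library. The mean number of DTL cells was 70.3 in lean, 283 in obese and 224 in treated rats, and that of TAL/MD cells was 400, 363.5 and 629. The TAL/MD numbers overlapped between lean (175 to 526) and obese rats (268 to 620). All types together gave a mean of 7387.5, 11965.8 and 12400.7 cells in the 3 groups. Between treated and untreated obese rats the DTL share of all cells differed by -0.53 ± 0.52 (adjusted p = 0.593 in edgeR), and between treated and lean rats by 1.10 ± 0.52 (adjusted p = 0.108 in edgeR). How much of the ratio comes from either cell type was not tested. The value of lean rat 2 rests on 23 DTL cells, and those of the other rats on 42 to 432. The mean log2 ratio was 2.24 lower in obese than in lean rats and 1.06 higher in treated than in untreated obese rats, and treated rats stayed 1.18 below lean rats. In exact permutation tests these gave p = 0.0286, 0.0571 and 0.0571, the smallest that 4 against 4 and 3 against 4 rats allow, and each adjusted p was 0.0571. This ratio was chosen after the shares of the loop had been seen. Without lean rat 2 the obese to lean difference was -1.75 and the treated to lean difference -0.69.

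**Figure D2:**
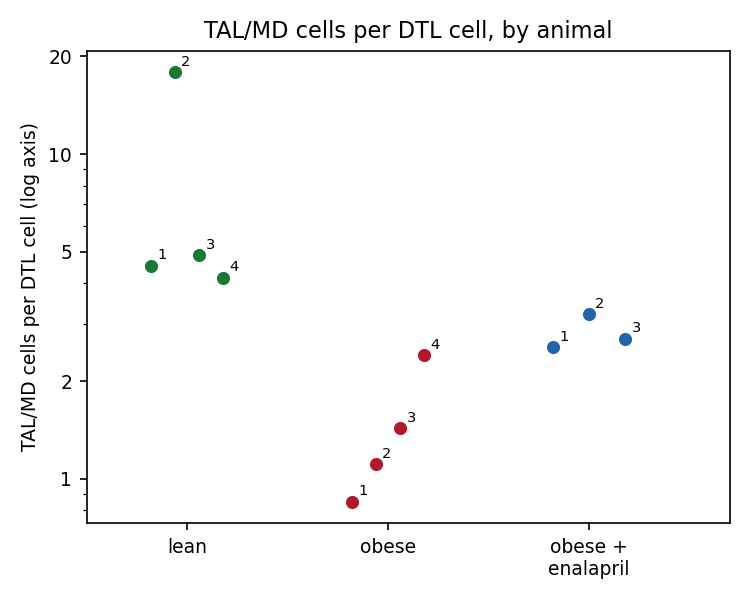
TAL/MD cells per DTL cell (log axis) in each of the 11 rats, numbered within lean, obese and enalapril-treated obese rats. The obese rats (0.851 to 2.41), the treated rats (2.54 to 3.21) and the lean rats (4.17 to 17.9) occupy separate ranges.

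TAL/MD cells had a high mitochondrial share. The median over the 11 rats was 25.4% of UMIs, rank 1 of the 19 types that could be ranked, and within each rat TAL/MD was among the 3 highest types. TAL/MD cells gave 1.73% to 8.92% of a rat's UMIs but 4.00% to 19.5% of its mitochondrial UMIs. The median TAL/MD cell lay 3.09 to 20.2 percentage points above the median of the other non-immune cells of the same rat, in 11 of 11 rats. Against DTL the TAL/MD median was higher in 11 of 11 rats, by a median of 12.0 points. By the median over the 11 rats DCT was the type with the next highest mitochondrial share, and TAL/MD exceeded it in 8 of 11 rats. The DCT median depended on the group, with 0% to 4.75% in lean, 25.8% to 33.9% in obese and 6.50% to 28.4% in treated rats. The types were cut from the RNA of the same cells, so these are descriptions without a test.

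By group, the median mitochondrial share of TAL/MD cells was 25.4%, 11.4%, 25.2% and 26.9% in lean rats 1 to 4. In obese rats 1 to 4 it was 30.3%, 32.8%, 25.3% and 34.4%. In treated rats 1 to 3 it was 8.18%, 21.8% and 30.5%. Lean and obese rats overlapped only between 25.3% and 26.9%, and the treated rats ran from below every lean rat to within the obese range. The obese to lean difference was 8.45 ± 4.91 points (SE, adjusted p = 0.391, limma over 18 types, of which 5.56% were called). The treated rats differed from obese rats by -10.5 ± 5.30 points (adjusted p = 0.670 in limma, with 0% of types called). They differed from lean rats by -2.05 ± 5.30 points (adjusted p = 0.883 in limma, with 5.56% of types called), and by 3.95 points without treated rat 1.

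The share of cells under 10% mitochondrial UMIs separated lean from obese rats. Of the TAL/MD cells, 13.9%, 45.01%, 14.8% and 18.3% had under 10% mitochondrial UMIs in lean rats 1 to 4, against 3.72%, 5.97%, 10.5% and 11.9% in obese rats 1 to 4. No obese rat reached the lowest lean rat, and 33.3% of 18 types showed no overlap between these groups in this measure. The difference of means was -15.0 points (exact two-sided permutation test, p = 0.0286, adjusted p = 0.0857), and -7.63 points without lean rat 2. Treated rats had 56.9%, 16.5% and 4.70% such cells, a spread wider than that of both other groups. They differed from obese rats by 18.04 points (exact permutation p = 0.286, adjusted p = 0.429), and by 2.60 points without treated rat 1. At a limit of 5% lean and obese rats overlapped (6.35% to 21.2% and 0.676% to 8.89%). At 20% they did not (34.3% to 85.2% and 22.3% to 31.9%). The median mitochondrial share of the other non-immune cells was 2.72% to 11.4% in lean and 14.7% to 20.7% in obese rats. Whether the TAL/MD separation goes beyond that difference was not tested.

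At the other end, no deposited cell exceeded 50% mitochondrial UMIs, and the highest TAL/MD cell had 49.98%. TAL/MD cells reached this limit in numbers. Between 45% and 50% lay 5.51%, 0%, 5.53% and 12.6% of the TAL/MD cells in lean rats 1 to 4, 12.5%, 17.9%, 6.77% and 17.0% in obese rats 1 to 4, and 0%, 4.50% and 9.83% in treated rats. Group means were 5.90% ± 5.15, 13.6% ± 5.11 and 4.78% ± 4.92 (SD, n = 4, 4 and 3). Obese and lean rats differed by 7.65 points (exact permutation p = 0.0857, adjusted p = 0.171). Among 19 types TAL/MD took rank 3 by the median share of cells in this band, after TAL and DCT. In obese rats 2 and 4 the highest band was the fullest of the 10 bands of 5 points. Cells above 50% are not analysed here, so how many TAL/MD cells lay beyond the limit in each group is unknown, and the part of the limit in the group shares was not tested.

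**Figure D3:**
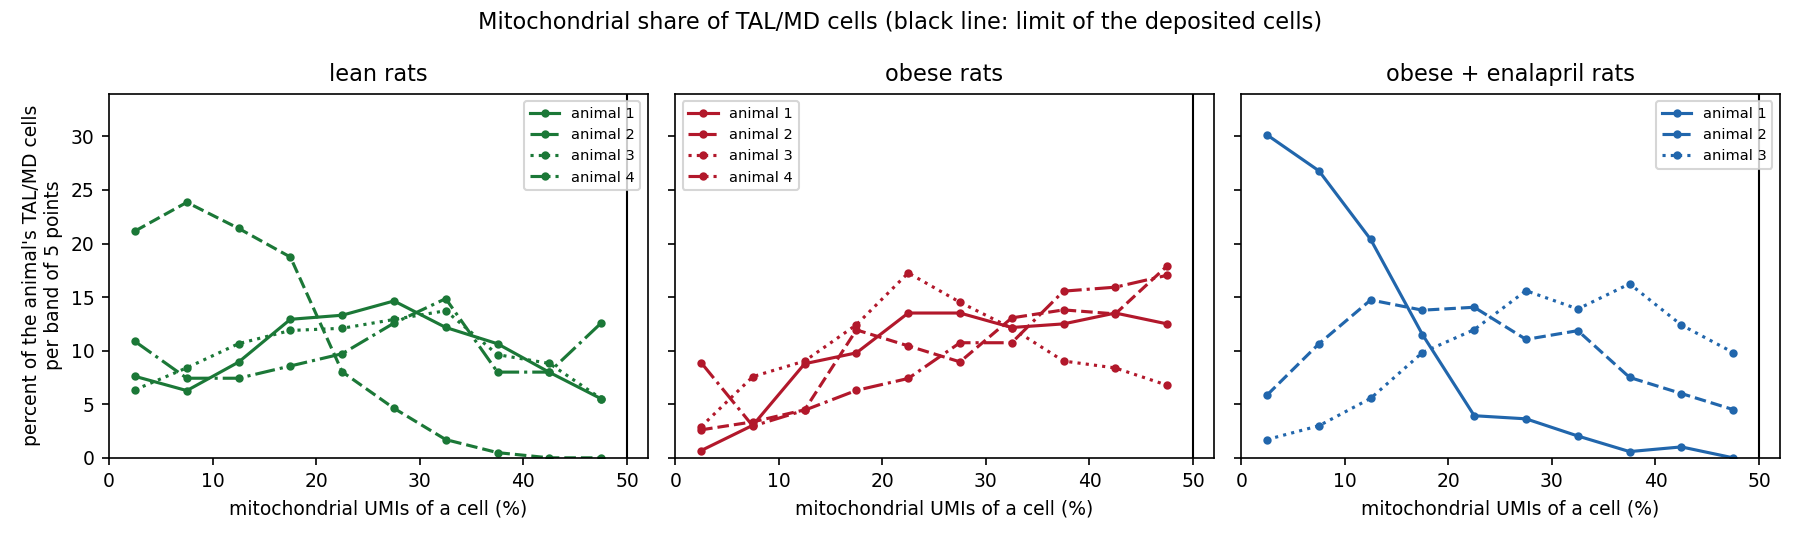
Percent of each rat's TAL/MD cells (y axis) in bands of 5 points of the mitochondrial share of UMIs (x axis), 1 line per rat and 1 panel per group, with a black line at the 50% limit of the deposited cells. Lean rat 2 and treated rat 1 pile up below 20%, while in obese rats 2 and 4 the band from 45% to 50% holds 17.9% and 17.0% of the cells.

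Within the TAL/MD cells of a rat, those with the highest mitochondrial share mostly held fewer other transcripts. In 9 rats with at least 10 cells in both bands, the median number of genes was lower at 40% to 50% than at 10% to 20% mitochondrial UMIs in 8 rats, with a median ratio of 0.711. Non-mitochondrial UMIs were lower in 8 of the 9 rats as well, with a median ratio of 0.656. Total UMIs differed little between these bands, with a median ratio of 0.986 and higher values in 4 of 9 rats. Mitochondrial UMIs are part of the total, which ties these measures together. At like totals a higher mitochondrial share by itself means fewer non-mitochondrial UMIs, so that ratio is no separate result. Genes differed less between lower bands. Cells at 20% to 30% against 10% to 20% had a median gene ratio of 0.979, with more genes in 2 of 11 rats. Cells at 30% to 40% against 20% to 30% had 0.978, with more genes in 4 of 10 rats.

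TAL/MD cells were rich in RNA beside TAL and DCT cells, and less clearly so beside DTL cells. In lean rats 1 to 4 the median TAL/MD cell held 2002, 380, 3519 and 3512 UMIs. In obese rats it held 4589, 3499, 5124 and 2369 UMIs, and in treated rats 1563, 4483 and 4251. Lean rat 2 lay far below the other 10 rats, and the groups overlapped. The obese to lean log2 difference was 1.09 ± 0.64 (SE, adjusted p = 0.286, limma, with 0% of 18 types called), and 0.36 without lean rat 2. Median genes per cell ran from 207 to 1322 in lean, from 843 to 1693 in obese and from 673 to 1547 in treated rats. Their obese to lean log2 difference was 0.76 ± 0.53 (adjusted p = 0.366 in limma, with 0% of types called), and 0.15 without lean rat 2. No deposited cell exceeded 2971 genes, and the highest TAL/MD cell had 2924. Whether cells with more genes were left out before deposit is unknown. The part of such a limit in the gene and UMI medians was not tested.

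Genes per cell follow the number of UMIs, so cells of like depth were also compared. Among TAL/MD cells with 1000 to 2000 UMIs, the median was 679, 697 and 662 genes in lean rats 1, 3 and 4, while lean rat 2 had no such cell. In obese rats 1 to 4 it was 642, 605, 685 and 579 genes, and in treated rats 655, 610 and 644. Obese rat 3 lay within the lean range and the other 3 obese rats below it. The log2 difference between obese and lean rats was -0.12 ± 0.09 (adjusted p = 0.700 in limma over 12 types, of which 8.33% were called). At matched depth the sign was thus opposite to that of all cells, and neither difference passed the test. Total UMIs were matched, mitochondrial ones included, and the part of the mitochondrial share in this difference was not tested. Some medians rested on few cells, with 21 in obese rat 1 and 23 in lean rat 4, against 388 in treated rat 1.

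The plain TAL cells of the same rats were far shallower. The median TAL/MD cell had more UMIs than the median TAL cell in 11 of 11 rats, with a median ratio of 3.16 and a range from 1.43 to 4.31, and more genes in 11 of 11 rats (median ratio 2.41). Against DCT the UMIs were higher in 11 of 11 rats (median ratio 2.34), and against DTL in 9 of 11 (median ratio 1.14). Against DTL the genes were higher in only 6 of 11 rats (median ratio 1.02). Non-mitochondrial UMIs were higher than in DTL in 7 of 11 rats (median ratio 1.05). TAL had the lowest median UMIs of all 19 ranked types and TAL/MD ranked 6th. The within-rat log2 ratio of TAL/MD to TAL UMIs did not separate the groups: 1.39 ± 0.67 in lean, 1.82 ± 0.20 in obese and 1.43 ± 0.39 in treated rats (SD, n = 4, 4 and 3). Between obese and lean rats the difference of 0.43 gave an exact permutation p of 0.314 (adjusted p = 0.471).

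**Figure D4:**
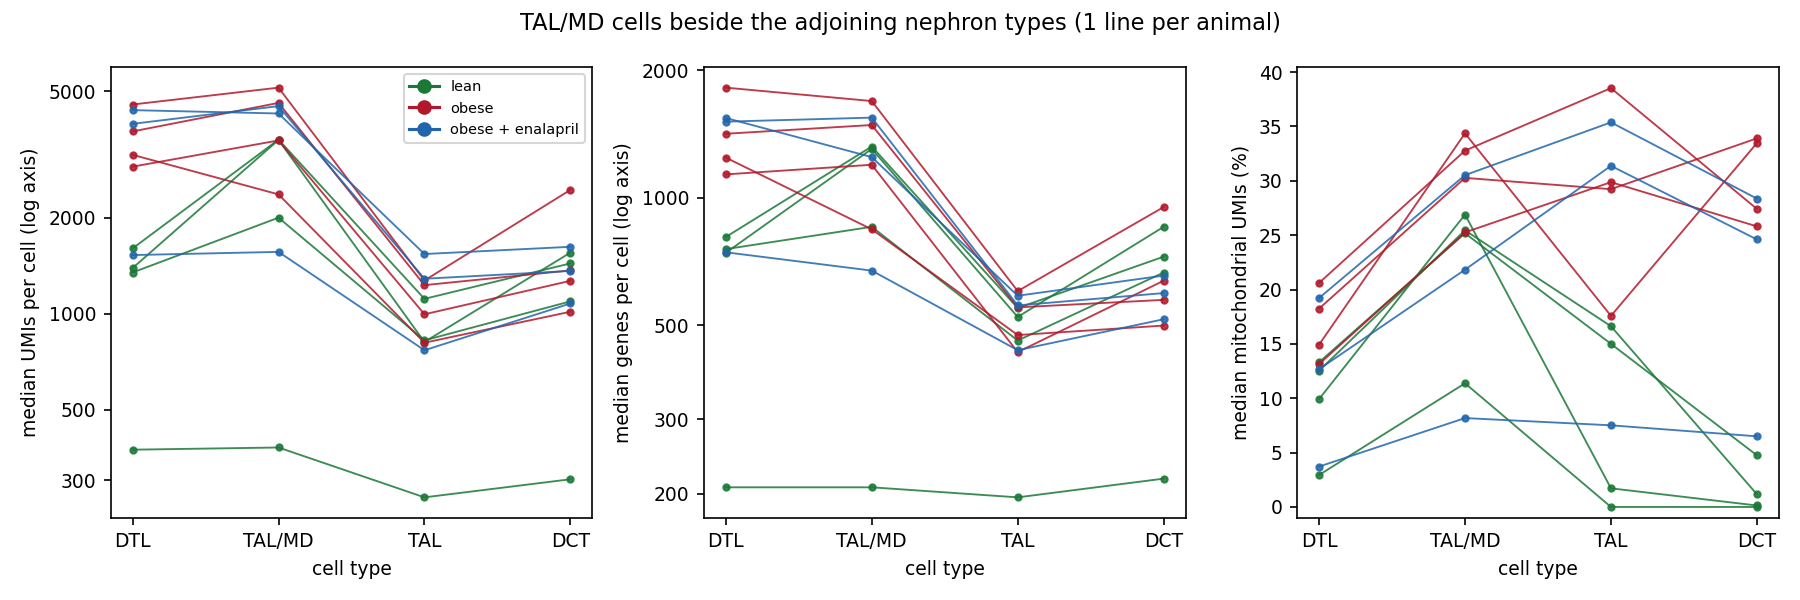
Median UMIs per cell and genes per cell (log axes) and median mitochondrial percent for DTL, TAL/MD, TAL and DCT cells, with 1 line per rat coloured by group. UMIs fall from TAL/MD to TAL in 11 of 11 rats, while the mitochondrial lines fall to TAL in the 4 lean rats and rise or fall in the others.

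The order of TAL/MD and TAL by mitochondrial share depended on the rats. In lean rats 1 to 4 the TAL/MD median exceeded the TAL median by 8.82, 11.4, 10.2 and 25.2 points. In obese rats 1 to 4 the difference was 1.04, -5.75, -4.62 and 16.8 points, and in treated rats it was 0.666, -9.55 and -4.86 points. TAL/MD was thus higher in 4 of 4 lean, 2 of 4 obese and 1 of 3 treated rats, and every lean rat lay above every treated rat. Overlap was not counted for other pairs of types, so how common this separation is among them is unknown. The means were 13.9 ± 7.60, 1.86 ± 10.4 and -4.58 ± 5.11 points (SD, n = 4, 4 and 3). Obese minus lean, the difference of -12.0 points gave an exact permutation p of 0.114 (adjusted p = 0.171), and the treated to lean difference of -18.5 points a p of 0.0571 (adjusted p = 0.171). The treated to obese difference of -6.45 points gave an exact permutation p of 0.400 (adjusted p = 0.400).

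Both types enter this difference. The TAL medians themselves were 16.6%, 0%, 15.0% and 1.71% in lean rats 1 to 4, 29.2%, 38.5%, 29.9% and 17.6% in obese rats and 7.51%, 31.4% and 35.4% in treated rats. In lean rats 29.7%, 90.0%, 25.5% and 63.0% of TAL cells had under 5% mitochondrial UMIs, whereas of lean TAL/MD cells 7.60%, 21.2%, 6.35% and 10.9% did.

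The authors' S and G2M scores, which average genes of DNA replication and of division, lay near 0 in TAL/MD cells. The mean S score was -0.00113, -0.00624, -0.00282 and -0.00577 in lean rats 1 to 4 and 0.000728, 0.00228, 0.000486 and 0.00451 in obese rats 1 to 4. All lean means were below 0 and all obese means above it. Of 18 types, 16.7% showed no overlap between these groups in this score, 2 of them higher and 1 lower in obese rats. Treated rats had -0.00115, 0.00421 and -0.000669. The obese to lean difference of 0.00599 ± 0.00197 did not pass the test (adjusted p = 0.0911, limma, with 0% of types called).

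From these scores the authors called 51.5%, 19.95%, 50.4% and 46.9% of lean TAL/MD cells S or G2M, 57.1%, 53.7%, 54.8% and 55.9% of obese ones and 54.4%, 60.2% and 51.9% of treated ones. Every obese rat lay above every lean rat, as in 27.8% of 18 types, and so did every treated rat. Of 19 types, 21.1% showed no overlap between treated and lean rats, 3 of them higher and 1 lower in treated rats. By contrast lean rat 2, with the fewest UMIs per cell, lay lowest. The obese to lean difference of 13.2 ± 5.98 points was not called (adjusted p = 0.131 in limma, with 0% of types called), and it was 5.80 points without lean rat 2. The G2M score differed by 0.00400 ± 0.00407 (adjusted p = 0.737 in limma), and by 0.00906 without lean rat 2 (adjusted p = 0.0428 in limma). Called phases depend on depth and no thinning to equal depth was possible without gene values, so no cycling is read from them.

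On the authors' 2-dimensional map, nearly all TAL/MD cells formed 1 body between TAL and DTL. Of the 30 nearest cells of a TAL/MD cell, 94.1% were TAL/MD, 4.48% TAL, 1.12% DTL and 0.144% macrophages (Macro), and 4865 members (98.4%) had mostly TAL/MD neighbours. The own share ran from 92.6% to 96.3% over the rats. None of the 4942 TAL/MD cells lay in the upper part of the map, above -2 on coordinate 2, where 306 of 2009 TAL cells (15.2%) lay. The name TAL thus covers cells in places of the map that TAL/MD does not reach.

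The members nearest TAL had less RNA. With at least 20% TAL cells among their neighbours, 246 TAL/MD cells (4.98%) formed this border. In 8 of 8 rats with at least 10 such cells they had fewer UMIs than the interior members, with a median ratio of 0.482, and fewer genes, with a median ratio of 0.520. Their mitochondrial share was higher in 7 of 8 rats, by a median of 9.20 points. Split at the pooled median of coordinate 1, members on the TAL side had fewer genes than the others in 11 of 11 rats and fewer UMIs in 10 of 11. Their mitochondrial share was higher in 7 of 11 rats, with differences from -2.93 to 11.2 points.

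Lean rats lay apart along that same coordinate. The median of coordinate 1 was -1.92, -1.96, -1.96 and -1.77 in lean rats 1 to 4, -2.32, -2.24, -2.17 and -2.35 in obese rats and -2.27, -2.14 and -2.23 in treated rats. On this coordinate every lean rat, the shallow one included, lay farther from the TAL side than every obese rat, treated or not. The obese to lean difference was -0.37 and the treated to lean difference -0.31 map units (exact permutation p = 0.0286 and 0.0571, each the smallest possible, adjusted p = 0.0857 for both). Treated and untreated obese rats differed by 0.06 (exact permutation p = 0.343, adjusted p = 0.343). Of 18 types, 33.3% showed no overlap between lean and obese rats on this coordinate, and of 19 types, 26.3% showed none between lean and treated rats.

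By cells, 41.3%, 35.3%, 40.8% and 32.0% of the members lay on the TAL side of the split in lean rats 1 to 4. In obese rats the share was 58.4%, 55.2%, 52.9% and 58.1%, and in treated rats 58.7%, 52.3% and 56.0%. The measure was chosen after the map had been seen. Distances on such a map have no unit of expression, and the part of depth or mitochondrial RNA in this shift was not tested.

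**Figure D5:**
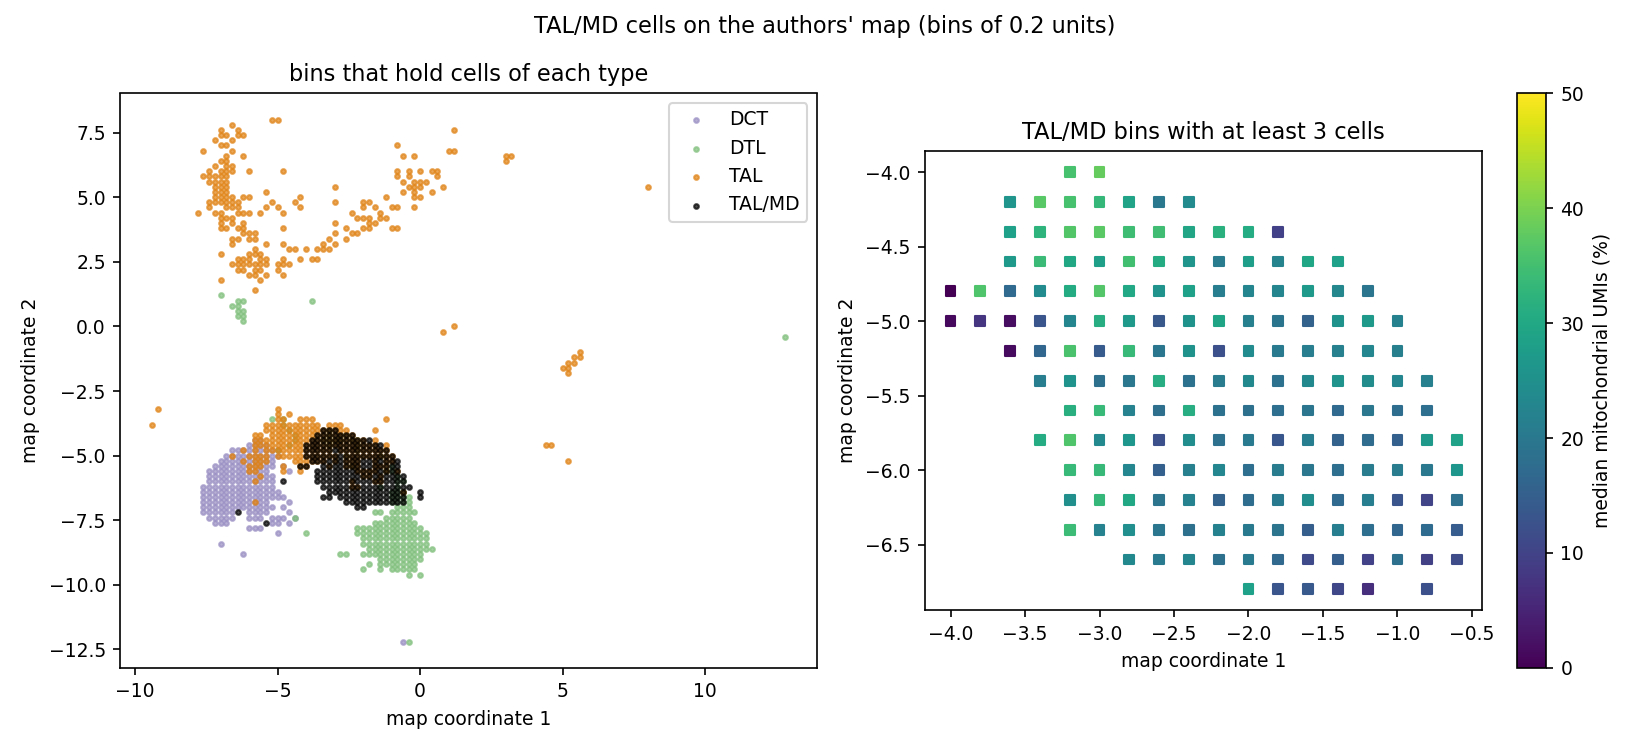
Left, bins of the authors' map (2 coordinates without units) that hold TAL/MD, TAL, DTL or DCT cells, with TAL/MD between TAL and DTL. Right, TAL/MD bins with at least 3 cells, coloured by their median mitochondrial percent; within single rats it was higher on the left, the TAL side, in 7 of 11.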

How the data were processed

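Single-cell RNA-seq of 11 rat kidneys was used as the authors' deposited table of cells. Per the submitters' processing notes, Cell Ranger 7.0.1, Seurat 4.3.0 and the rn6 genome were used. Per the file headers, the deposited table gives UMI counts and gene counts per cell, the mitochondrial percent of UMIs, S and G2M scores, a phase, a cell type and map coordinates. The authors' filters and any doublet removal are not stated in the labels or headers. Cells left out before deposit are missing from every share.

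The rat was the replicate. Cell counts per type with a mean of at least 10 per rat were fitted with edgeR 4.0.16 (robust quasi-likelihood), with all cells, non-immune cells or the cells of a compartment as the total. Medians and mean scores from at least 20 cells were fitted with limma 3.58.1, and single ratios with exact two-sided permutation tests. All fits held 3 groups, and p-values were adjusted by Benjamini-Hochberg over types, or over 3 contrasts, with a threshold of 0.05. Fits were tested on simulated data. TAL, DTL and DCT were always set beside TAL/MD, and other types were named only at an extreme rank, as a map neighbour or in a count. The table holds no gene values, so no gene was tested and no marker checked. Alternatives were DESeq2 1.42.0, limma on log2 odds, a replicate block, other cell limits and leaving out rats. The cell type, its comparisons and its neighbours were chosen with earlier results of these data known.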

Additional observations from a re-analysis of the deposited data

Results flagged for a closer look

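In 4 of 30 groups of 4 rats checked, 1 rat lay farther from the others than Dixon's 95% limit allows, and chance alone flags about 1 in 20 groups. In 3 of them it was lean rat 2, the library with the fewest UMIs per TAL/MD cell. Its median mitochondrial share was 11.4%, against 25.2% to 26.9% in the other lean rats. Of its TAL/MD cells 45.01% had under 10% mitochondrial UMIs, against 13.9% to 18.3%. Its share of cells called S or G2M was 19.95%, against 46.9% to 51.5%. In the remaining group it was lean rat 4, whose TAL/MD median exceeded its TAL median by 25.2 points of mitochondrial share, against 8.82 to 11.4 points in the other lean rats.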

How the results depend on the processing

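The differences between obese and lean rats in the ratio of TAL/MD to DTL cells, in the loop share, in cells under 10% mitochondrial UMIs and on map coordinate 1 kept their sign in each alternative run. Differences between enalapril-treated and lean rats turned most often. Depth limits the comparison of genes, since lean rat 2 had no TAL/MD cell with 1000 UMIs, and the limit at 50% mitochondrial UMIs hides an unknown number of cells. With 4 and 3 rats per group the exact tests cannot reach an adjusted p under 0.05 over 3 contrasts. The cause of each change below was not tested.

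For the share of all cells, obese minus lean was called with a replicate block (-0.81, adjusted p = 0.0199 in edgeR) and without obese rat 3, and ranged from -1.14 to -0.46 when 1 rat was left out. Whether the same replicate numbers pair the rats was not tested. Over 10 same-numbered pairs the correlation ran from -0.444 to 0.516, and 5 exceeded 0.1. Yet 8 of 11 rats correlated best with their own number. The block changed no other call. The loop share, obese minus lean, was -1.21 as log2 odds in the exact permutation test (adjusted p = 0.121), which at 4 against 4 rats cannot go below p = 0.0286 before adjustment and so says little about stability. In edgeR it ranged from -0.65 to -0.44 with 1 rat left out. Treated minus obese was called by DESeq2 (0.48).

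Treated minus lean turned without both shallow rats, an alternative chosen after seeing the data, in the share of all cells (0.43), of the loop (0.0605) and of non-immune cells (0.48), the mitochondrial median (0.34 points), cells under 10% (-5.04 points) and the log2 UMIs relative to TAL (-0.0494). Treated minus obese turned there in UMIs (0.22), genes (0.14) and the G2M score (-0.00353), and the obese minus lean G2M score was called (0.00906, adjusted p = 0.0289 in limma). Among cells with at least 1000 UMIs, treated minus lean turned in the share of all cells (0.27), of non-immune cells (0.26) and in genes (-0.0522). Under 25% mitochondrial UMIs it turned in the loop share (0.0652), and obese minus lean turned in the thick limb share (0.12). The non-immune share turned as log2 odds in limma and in the permutation test (0.0648 each), the UMIs relative to TAL turned with means (-0.23), and treated minus obese genes turned at 2000 to 4000 UMIs (-0.0329).

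With 1 rat left out, treated minus lean ranged from -0.35 to 0.24 in the share of all cells, -0.16 to 0.0477 in the loop, -0.28 to 0.26 in non-immune cells, -0.0604 to 0.90 in log2 genes, -7.22 to 3.95 points in the mitochondrial median, -12.4 to 13.7 points in cells under 10%, -3.65 to 1.26 points in cells at 45% to 50% and -0.25 to 0.28 in log2 UMIs relative to TAL. Treated minus obese ranged from -0.54 to 0.22 in log2 UMIs, -0.46 to 0.14 in log2 genes, -2.22 to 1.90 points in cells called S or G2M, -0.00353 to 0.00295 in the G2M score and -0.0161 to 0.0648 in genes at 1000 to 2000 UMIs. The obese minus lean G2M score ranged from 0.00184 to 0.00906.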
